A study of Homo sapiens with 12 samples.

Results

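The comparison set 2 human cell lines side by side, each induced to make a different protein of the AlkB family. It used 6 of the 12 arrays of the series, chosen by their titles: 3 arrays of RNA from the ALKBH4 line after induction and 3 of RNA from the ALKBH7 line after induction. Both lines were derived from HEK293, a line grown from human embryonic kidney, in a host that carries a single acceptor site in the genome (Flp-In T-REx). A FLAG-tagged ALKBH4 or ALKBH7 cDNA was placed at that site behind a tetracycline-inducible promoter, single hygromycin-resistant colonies were expanded, and the cells were kept in blasticidin-S and hygromycin B. All 6 samples had received 2 µg/ml doxycycline for 48 h, a tetracycline analogue that switches the promoter on. The other 6 arrays held the same lines without doxycycline, 3 of each, and served as a reference for the line difference. The 2 sides of the comparison thus differ in the transgene, in the colony from which the line was grown and in any difference between the array runs of the lines, and these cannot be told apart. No array of an induced line without either cDNA was analysed here.

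AlkB proteins are dioxygenases that use iron and 2-oxoglutarate to oxidise methyl groups or other carbons. ALKBH7 is a mitochondrial member linked to programmed necrosis and fatty acid metabolism, and ALKBH4 a member linked to demethylation of actin and found with proteins of transcription and chromatin. Doxycycline also inhibits protein synthesis in mitochondria, and both sides of the comparison had received it.

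Each RNA was measured on an Illumina HumanWG-6 v3 BeadChip with 48803 probes. Of these, 14005 were detected (detection p under 0.01) in at least 3 of the 6 arrays and were tested, and 11931 carried a single gene symbol, for 9542 genes. A probe could pass this filter through the line in which it was bright alone. The arrays of the lines differed before normalization. Median intensity was 61.6, 49.0 and 45.6 in the ALKBH4 line and 99.9, 121 and 111 in the ALKBH7 line. The share of probes detected ran the other way, from 27.9% to 29.3% against 25.3% to 27.1%. Neither set of values overlapped, and the exact two-sided permutation p was 0.1 for each, the smallest that 3 against 3 arrays allow. After quantile normalization of the 6 arrays together the correlation of log2 values was 0.984 to 0.991 within the ALKBH4 line, 0.989 to 0.995 within the ALKBH7 line and 0.902 to 0.934 between them. The labels do not say that the 3 samples of a line were separate cultures, so p-values measure the spread between these samples only, and the number of arrays limits the precision. In RNA from whole cultures, fewer cells expressing a gene and less of its RNA per cell cannot be told apart.

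The ALKBH7 transcript was the most different of all. Its log2 intensity was 7.72, 8.09 and 7.95 on the induced ALKBH4 arrays and 13.07, 13.13 and 13.51 on the induced ALKBH7 arrays. The groups lay far apart, and the difference of 5.31 ± 0.14 (SE), 39.8-fold, had an adjusted p of 2.81e-10 (limma with Benjamini-Hochberg adjustment). In uninduced cells, on values normalized over 12 arrays, the ALKBH7 line stood at 9.66, 9.19 and 9.12 and the ALKBH4 line at 7.86, 7.79 and 7.75. The line label of all 6 ALKBH7 arrays thus fitted the transcript, and the uninduced line already lay above the other one. The single ALKBH4 probe, which per the study lies in the untranslated part of the gene and so does not report the transgene, checks no label. It read 7.655, 7.892 and 7.334 in the ALKBH4 line and 8.352, 7.975 and 7.996 in the ALKBH7 line, higher in the latter by 0.48 ± 0.15 (adjusted p = 0.015), a call lost with median scaling (0.0011) and without ALKBH4 induced replicate 3 (0.32, adjusted p = 0.0627) or ALKBH7 induced replicate 1 (0.36, adjusted p = 0.0864).

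Among the 9 AlkB family genes 5 were higher in the ALKBH7 line, 2 were lower and 2 did not pass, where 34.7% of all genes tested were higher and 26% lower. The 5 included ALKBH7, which the transgene of that line encodes, and the ALKBH4 probe described above. With arrays scaled only to a common median 1 of the 9, ALKBH7 itself, was higher and 2 were lower. The median of the family moved from 0.43 to -0.19, and FTO and ALKBH8 were no longer called higher. FTO, an RNA demethylase, read 8.13, 8.19 and 8.02 against 9.42, 9.35 and 9.28, a difference of 1.24 ± 0.11. ALKBH8, which modifies wobble uridines of tRNA, was higher by 0.82. ALKBH1, which acts on DNA and tRNA and resides partly in mitochondria, was lower at all 3 of its probes, with differences of -0.98, -1.07 and -0.77.

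Of the 14005 probes 8646 (61.7%) passed the threshold of adjusted p 0.05, 4468 (31.9%) higher and 4178 (29.8%) lower in the ALKBH7 line, and the 3 values of one line did not overlap those of the other at 9337 probes (66.7%). The lower and upper quartiles of the differences were -0.40 and 0.41, against a median SE of 0.12. Past 2-fold, probes lower in the ALKBH7 line outnumbered the higher ones, with 1024 (7.31%) against 626 (4.47%). Taken per gene at its brightest probe, 5793 genes (60.7%) passed, 3312 (34.7%) higher and 2481 (26%) lower, and the median difference was 0.09. These counts describe quantile-normalized values. With arrays scaled only to a common median, the median difference of all probes moved to -0.46 and 4666 probes passed, 272 higher and 4394 lower, so directions are given relative to the whole array.

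**Figure D1:**
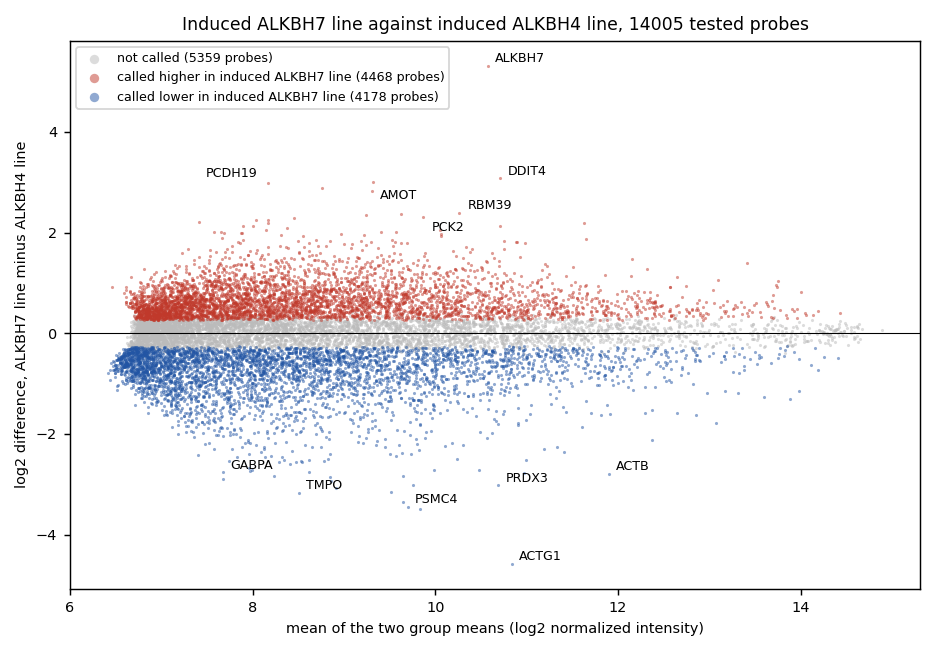
Difference between the induced lines (ALKBH7 minus ALKBH4, log2) against the mean log2 normalized intensity for the 14005 tested probes, with probes called higher in red (4468), called lower in blue (4178) and not called in grey. ALKBH7 stands alone at 5.31, DDIT4, AMOT and PCDH19 follow near 3, and the lowest probe belongs to ACTG1 at -4.57.

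After ALKBH7 the genes most elevated in the ALKBH7 line were a stress gene and 2 genes of cell contact and polarity. DDIT4, a stress-induced inhibitor of mTORC1, read 9.18, 9.20 and 9.15 in the ALKBH4 line and 12.26, 12.10 and 12.39 in the ALKBH7 line. AMOT, an angiomotin that binds YAP at cell junctions, read 7.70, 8.13 and 7.62 against 10.65, 10.82 and 10.97. PCDH19, a protocadherin of neural cells, read 6.80, 6.60 and 6.62 against 9.56, 9.60 and 9.82. The groups of each were about 3 log2 units apart, with differences of 3.07 ± 0.11, 3.00 ± 0.14 and 2.99 ± 0.12 and adjusted p from 7.33e-09 to 4.79e-08. The PCDH19 values of the ALKBH4 line were dim, so the size of its difference is uncertain. Another gene, WHAMM, read 6.66, 6.66 and 6.80 on the same 3 arrays and was detected on 1 of them. The collagen gene COL2A1, of cartilage matrix, read 7.13, 7.33 and 6.93 against 9.03, 9.15 and 9.34 (difference 2.04). RBM39, a splicing coactivator, PCK2, the mitochondrial phosphoenolpyruvate carboxykinase, the surface protein gene LY6G6D and the globin gene HBQ1 were higher by 2.40, 2.31, 2.28 and 2.19. NBPF9 belongs to a family of near-identical copies and its difference of 2.18 is uncertain for that reason. MARCHF6, a ubiquitin ligase of the endoplasmic reticulum, and IFNAR2, an interferon receptor chain, were higher by 2.13 and 2.12 at one probe and not called at another (-0.22 and 0.12). PCK2 was also less different, at 0.60, at its other probe.

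The lowest genes included actins, glycolytic enzymes and a proteasome subunit, and here probes of the same gene often disagreed. ACTG1, cytoplasmic gamma-actin, read 13.41, 12.70 and 13.27 in the ALKBH4 line and 8.22, 8.11 and 9.32 in the ALKBH7 line at one probe, a difference of -4.57 ± 0.27 (adjusted p = 1.23e-07). At its other probe it read 14.56, 14.55 and 14.78 against 14.30, 14.36 and 14.54 (-0.23 ± 0.12, adjusted p = 0.105). The groups were far apart at the first probe and separated by a small gap that did not pass at the second. ACTB, beta-actin, gave -2.79 at one probe and 0.20 and 0.02, neither called, at the other 2. ALDOA, a glycolytic aldolase, gave -3.15 and 0.11, and TMPO, which encodes lamina-associated polypeptides of the nuclear envelope, -3.17 and 0.22, the second value of each not called. Other genes were low at every probe. PSMC4, an ATPase of the proteasome's regulatory particle, read 11.74, 10.85 and 11.67 against 7.77, 7.58 and 8.57, and its 3 probes gave -3.45, -3.34 and -2.84. PRDX3, a mitochondrial peroxidase, gave -3.02 and -2.30, PGAM1, a glycolytic mutase, -2.93 and -2.08, NCKAP1, a subunit of the WAVE complex, -2.84 and -1.53, and SDCBP, the adaptor syntenin, -2.74 and -2.00. MORF4L2, a chromatin protein of the NuA4 complex, was lower by a difference of -2.77 at its single probe.

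Over all genes with at least 2 tested probes (2036), the 2 brightest probes were both called in 911, in the same direction in 758 and in opposite directions in 153. In 790 genes only one of them was called and in 335 neither. Their differences correlated at r = 0.512 across genes, which are not independent replicates. Of the 530 probes over 2-fold lower whose gene had another tested probe, 399 (75.3%) had another probe called lower, 53 had one called higher and 93 had none called. Of the 142 over 2-fold higher, 81 (57%) had another called higher, 30 had one called lower and 39 had none. Every probe was called higher in 206 genes and every probe lower in 500. Where in its transcript a probe lies is not given in the sources used here, so the part of probe position in these disagreements was not tested.

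At other genes every probe was called in one direction. By their less different probe the leading genes on the higher side were GAS6, a ligand of TAM receptor kinases (1.53), MYL5, a myosin light chain (1.44), SMARCC2, a BAF chromatin-remodelling subunit (1.36), DYRK1B, a kinase that promotes quiescence (1.26), UNC5B, a netrin receptor (1.20), MOSPD3 (1.20), PKD1, the polycystin of renal cilia (1.12), and CDC42BPA, a kinase of actomyosin (1.11). On the lower side, beside PSMC4, PRDX3, PGAM1 and SDCBP, they were CDK1, the kinase that drives mitosis (-2.30), CTNNB1, beta-catenin (-2.26), ALYREF, an mRNA export adaptor (-2.12), and AASDHPPT, a phosphopantetheinyl transferase (-1.95). CTNNB1 read 9.48, 8.83 and 9.45 against 6.89, 6.96 and 7.12 at this probe and was lower by a difference of -2.40 at the other.

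Of the 11931 tested probes with 1 gene symbol, some were detected on all arrays of one line and on none of the other. There were 805 (761 genes) in the ALKBH4 line and 174 (172 genes) in the ALKBH7 line. The ALKBH7 arrays also detected a smaller share of all probes, 25.3% to 27.1% against 27.9% to 29.3%. A probe that was not detected is not shown to be silent. For the 805 and the 174 probes the difference has a lower bound only, set by the dimmest detected signal. GNG12, a G-protein gamma subunit, was at least 4.83-fold lower in the ALKBH7 line, GABPA, a transcription factor of mitochondrial genes, at least 4.62-fold, SDCBP at least 5.63-fold at one probe, CDK1 at least 4.19-fold at one probe, XPOT, the tRNA exportin, at least 3.68-fold and NET1, a RhoA exchange factor, at least 3.40-fold at one probe (-0.41 at the other). GABPA read 9.317, 8.996 and 8.859 on the ALKBH4 arrays and 6.326, 6.262 and 6.304 on the others. In the opposite direction TMEM51-AS1, a noncoding antisense RNA, was at least 3.53-fold higher, S100P, a calcium-binding protein, at least 2.69-fold, RINL, a Rab5 exchange factor, at least 2.06-fold, UNC5B at least 2.05-fold, NUPR1, a stress-induced chromatin factor, at least 2.01-fold and PAQR6 at least 1.97-fold. S100P read 6.44, 6.42 and 6.49 against 8.23, 8.11 and 8.05. Fitted differences given in the text at such probes are bounds too, of at least 1.22-fold for ALKBH1 (its -0.77), 2.19-fold for NCKAP1 (-1.53), 1.44-fold for CDC42BPA (1.11), 1.57-fold for KRT18 (-1.13), 1.04-fold for MAD2L1 (-0.67), 1.77-fold for PCNA (-1.20) and 1.95-fold for ANKRD1 (-1.42).

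Gene lists were described at the brightest probe of each gene, against 34.7% higher and 26% lower over all genes. Mitotic genes, which build and control the spindle and the division machinery, were lower as a group, 32 of 39 measured, with 3 higher and a median of -0.53 against 0.09 for all genes. CDK1 read 11.22, 11.19 and 11.64 against 8.56, 8.71 and 8.63 at its brighter probe, a difference of -2.72 ± 0.13, the 2 lines wholly apart. MAD2L1 and BUB1, both of the spindle checkpoint, gave -2.11 and -1.53 (MAD2L1 -0.67 at its other probe), CCNA2, a cyclin of S phase and mitosis, -1.34, WEE1, the kinase that restrains CDK1, -1.15, and PKMYT1, a related kinase, -1.21 but 0.12, not called, at its other probe. CENPF, a kinetochore protein, was higher, by 0.89. Genes of G1/S and DNA replication split, 16 of 37 lower and 6 higher (median -0.15). RRM2, of ribonucleotide reductase, gave -2.68, PCNA, the replication clamp, -1.51 and -1.20, and RFC2, of the clamp loader, -1.95 but 0.46, called higher, at its other probe, while CCNE1, cyclin E1, and LIG1, the replicative ligase, were higher by 1.50 and 1.05.

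Heat shock genes, which encode chaperones that refold proteins, were also lower: 13 of 17, with 2 higher and a median of -0.72. HSPA1B, the inducible HSP70, read 12.60, 12.11 and 12.69 against 10.13, 10.56 and 9.92, a difference of -2.26 ± 0.18. It has a near-identical paralogue, HSPA1A, so the signal may belong to either. HSPH1, a partner of HSP70, gave -1.68, CHORDC1, a partner of HSP90, was at least 2.73-fold lower, and DNAJA1, an HSP40, and HSPA8, the constitutive HSP70, gave -1.40 and -0.72 (HSPA8 -1.06 at its other probe). HSP90AB1, the constitutive HSP90, was higher by 0.72. Of the chaperonin and prefoldin genes 8 of 13 were lower and 1 higher (median -0.33), among them TCP1 at -1.31 and -2.43, with 0.50, called higher, at the remaining probe, and CCT2 at -0.70.

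ATF4 targets, the genes of amino acid supply and stress that the integrated stress response switches on, moved the other way, 24 of 36 higher and 5 lower, with a median of 0.55. SESN2, a leucine sensor upstream of mTORC1, read 6.94, 7.13 and 6.81 against 8.74, 8.65 and 8.88. ATF5, a transcription factor of mitochondrial stress, read 8.38, 8.21 and 8.53 against 10.18, 10.19 and 9.72. The lines did not overlap at either gene, with differences of 1.80 and 1.66. STC2, a secreted glycoprotein, SLC1A5, a glutamine transporter, TRIB3, a pseudokinase, and DDIT3, the factor CHOP, were higher by 1.49, 1.44, 1.27 and 1.24, and CHAC1, which breaks down glutathione, was detected in the ALKBH7 line alone, at least 1.54-fold higher. Lower were XPOT (-1.81), SLC3A2, a chain shared by several amino acid transporters (-1.54), PSPH, of serine synthesis (-1.29, but 0.86, called higher, at its other probe), NARS1, which charges tRNA with asparagine (-0.69), and SLC38A2, an amino acid transporter (-0.57). With scaling to a common median the median of this list was -0.03 and that of all genes lower still, the list standing 0.40 above all genes where it stood 0.46 above them under quantile normalization, and 7 of its genes were called higher and 5 lower. Relative to all genes the mitotic list stood at -0.62 and, with median scaling, at -0.66, and the heat shock list at -0.81 and -0.88.

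**Figure D2:**
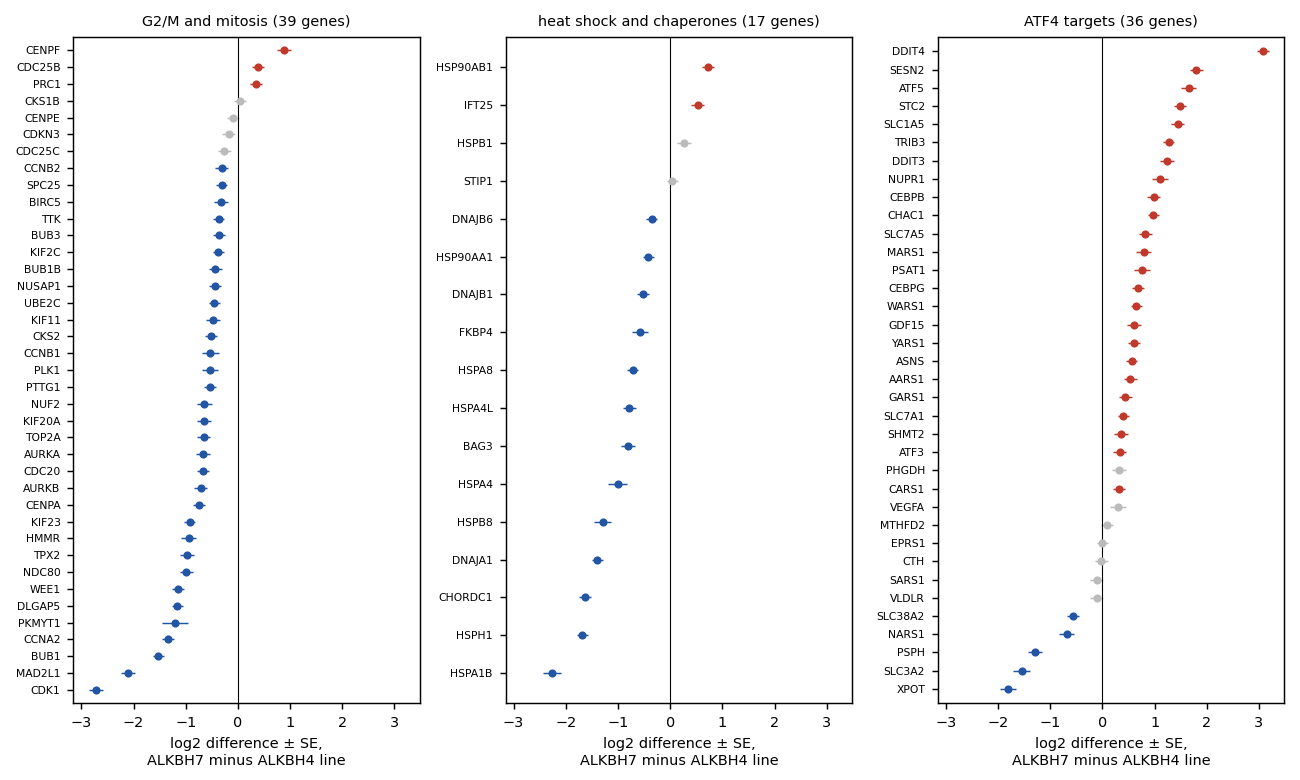
Log2 difference with its SE for each measured gene of the mitotic, heat shock and ATF4 target lists (39, 17 and 36 genes) at its brightest probe, red where called higher, blue where called lower and grey where not called. Most mitotic and heat shock genes lie left of 0 and most ATF4 targets right of it, with DDIT4 at 3.07 and CDK1 at -2.72 as the extremes.

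Promoters are shown for members that moved together in these lists, with matches to motifs of the factors each list is known for. The matches are of letters only, and binding by any factor was not tested. The windows run from 250 bases before to 50 after the start site (RefSeq, GRCh38.p14) and were searched on both strands. TGATGNAA, the shared part of the CCAAT-enhancer and ATF response element that ATF4 reads, was in 7 of 21 ATF4 targets that were higher and have a promoter in the table (33.3%), against 3.67% of all 27305 promoters. TTTGAA, the cell-cycle homology region of mitotic genes, was in 17 of 24 mitotic genes that were lower (70.8%) against 15.4%, and GAANNTTC, part of the heat shock element, in 6 of 12 heat shock genes that were lower (50%) against 6.87%. Among members with a promoter that were not called in that direction, the motif was in 2 of 10 ATF4 targets, 4 of 7 mitotic genes and 1 of 4 heat shock genes. Members of these lists are known for such letters, so the shares describe the lists and are no test of the line difference. GAANNTTC reads the same on both strands, and neither of the other 2 motifs contains another. Capitals mark the matches, on either strand. CHAC1 lies at chr15:40953221-40953520 (plus strand), CDK1 at chr10:60778081-60778380 (plus), HSPA1B at chr6:31827488-31827787 (plus) and CHORDC1, with 3 matches, at chr11:90223000-90223299 (minus).
CHAC1: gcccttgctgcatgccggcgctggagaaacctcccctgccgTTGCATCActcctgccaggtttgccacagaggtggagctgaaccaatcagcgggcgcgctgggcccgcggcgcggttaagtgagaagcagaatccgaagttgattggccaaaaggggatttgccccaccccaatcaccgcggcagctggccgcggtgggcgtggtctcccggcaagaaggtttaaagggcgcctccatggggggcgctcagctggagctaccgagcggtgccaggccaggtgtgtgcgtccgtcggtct
CDK1: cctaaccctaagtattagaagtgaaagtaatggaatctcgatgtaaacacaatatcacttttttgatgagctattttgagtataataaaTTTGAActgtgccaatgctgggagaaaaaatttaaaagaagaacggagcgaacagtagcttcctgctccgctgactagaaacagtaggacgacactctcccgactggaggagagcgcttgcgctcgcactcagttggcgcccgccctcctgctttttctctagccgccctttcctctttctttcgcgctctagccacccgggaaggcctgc
HSPA1B: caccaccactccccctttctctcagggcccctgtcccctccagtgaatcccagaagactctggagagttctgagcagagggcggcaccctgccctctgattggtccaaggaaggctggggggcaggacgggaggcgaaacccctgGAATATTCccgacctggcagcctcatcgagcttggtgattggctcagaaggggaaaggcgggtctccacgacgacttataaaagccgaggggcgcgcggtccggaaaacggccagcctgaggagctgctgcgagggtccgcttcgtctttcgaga
CHORDC1: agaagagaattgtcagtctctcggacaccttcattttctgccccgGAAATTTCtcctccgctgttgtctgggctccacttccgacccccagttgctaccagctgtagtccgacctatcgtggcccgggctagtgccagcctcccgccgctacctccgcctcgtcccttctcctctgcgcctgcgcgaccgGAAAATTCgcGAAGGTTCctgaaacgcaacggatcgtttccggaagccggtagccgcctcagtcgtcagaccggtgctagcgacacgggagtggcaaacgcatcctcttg

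Mitochondrial genes were of interest because ALKBH7 works there. Subunits of respiratory complexes III to V were higher in 20 of 33 and lower in 3 (median 0.38), and complex I in 14 of 30 and 3 (0.23). With median scaling these medians fell below 0, to -0.17 and -0.26, and stood 0.25 and 0.16 above all genes, with 5 genes of each list called, all lower. Examples among the higher subunits were NDUFB1 (1.17), NDUFB2 (0.93), ATP5MC1 (1.11) and ATP5MF (0.85), while NDUFA9 of complex I gave -0.83. The citric acid cycle ran the other way, 11 of 22 lower and 5 higher (median -0.27). SDHD, a membrane anchor of succinate dehydrogenase, read 9.06, 9.11 and 9.49 against 7.50, 7.65 and 7.64, and DLD, the shared E3 subunit of the oxoacid dehydrogenases, gave -1.25. IDH2, the mitochondrial isocitrate dehydrogenase, read 8.38, 8.72 and 8.15 against 10.02, 9.79 and 9.90, a difference of 1.49 in the opposite direction. Mitochondrial ribosomal proteins went both ways, 26 of 76 higher and 18 lower, near the shares of all genes, and so did fatty acid oxidation (7 and 6 of 21) and the genes of mitochondrial permeability and regulated necrosis (3 and 3 of 12), where VDAC1, a channel of the outer membrane, gave -0.83 and BAX, a pore-forming death factor, 0.64 at one probe and -0.39 at another. With median scaling these 3 lists had 0 genes higher, and 22, 9 and 3 lower in the same order.

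In RNA metabolism 21 of 41 splicing factors were lower and 10 higher (median -0.30). HNRNPA1, which binds exons and silences their splicing, read 9.20, 9.09 and 9.11 against 7.04, 7.14 and 7.39 at its brighter probe and was not called at the other (-0.27). HNRNPL gave -1.90, HNRNPH1 -1.67 and SRSF3 -1.36, while HNRNPU, a scaffold protein of the nucleus, gave 0.85 and, not called at its other probe, -0.01. RNA polymerase and Mediator genes were even, 14 higher and 14 lower of 43. With median scaling 1 of these 43 was higher and 18 were lower, and for splicing factors the counts were 0 and 23. Within Mediator's kinase module CCNC, cyclin C, gave -2.52 and -1.92 at called probes and -0.46, not called, at the remaining one, CDK8, its kinase, gave -1.08, and MED12, their activator, read 7.98, 8.23 and 7.66 against 9.58, 9.27 and 9.40 and was higher by 1.46. Among histone methylation genes 12 of 31 were lower and 8 higher, with KDM6A, a demethylase of H3K27, at -1.41, EED, of the Polycomb complex that methylates it, at -1.09, and SETD1A, an H3K4 methyltransferase, at 1.32. With median scaling 13 of these 31 were lower and 0 higher. Of 31 proteasome genes 19 were not called, with PSMC6 at -1.24 and PSMD4 at 0.63 among the others, and cytosolic ribosomal proteins were not called in 48 of 67.

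**Figure D3:**
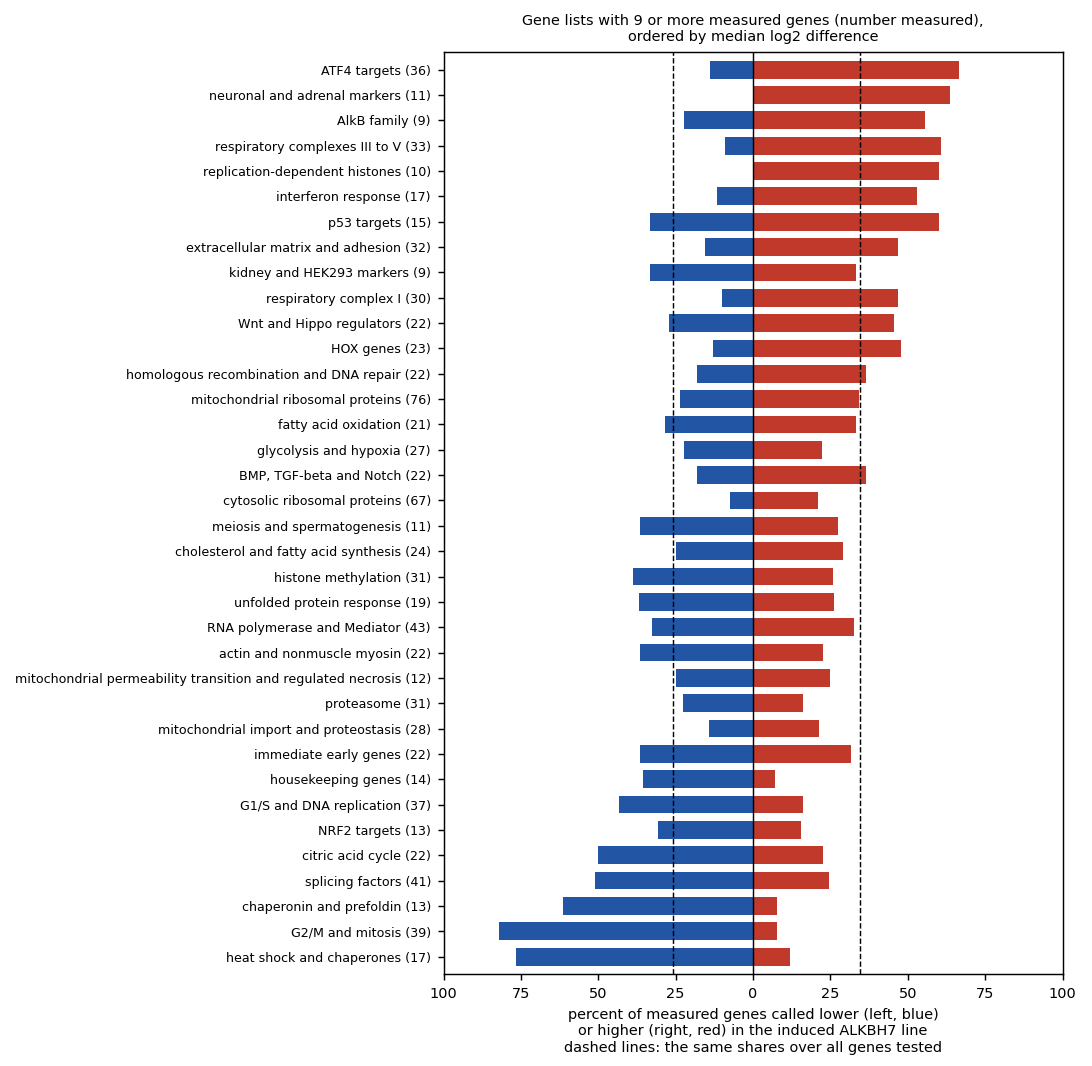
Share of measured genes called lower (blue, left) and higher (red, right) in the induced ALKBH7 line for each list with at least 9 measured genes, in percent, with the number measured in brackets. Dashed lines mark the shares over all 9542 genes, 26% and 34.7%, and the mitotic and heat shock lists at the bottom exceed the left line most while ATF4 targets at the top exceed the right one.

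Genes of identity and adhesion also differed between the lines. HOX genes, which record position along the body axis, were higher in 11 of 23 and lower in 3, led by HOXC4 (10.00, 9.71 and 9.85 against 11.26, 11.30 and 11.26), HOXC9 (1.31) and HOXB7 (1.10), with HOXB2 at -0.79 in the other direction. Extracellular matrix and adhesion genes were higher in 15 of 32 and lower in 5, COL6A1, a microfibrillar collagen, by 1.45 and LAMA1, a laminin, by 1.12, whereas CD44, the hyaluronan receptor, gave -1.14. The medians of these lists, 0.23 and 0.29, became -0.14 and -0.14 with median scaling, where 2 HOX genes were higher and 3 lower, and 3 matrix genes higher and 6 lower. Among Wnt and Hippo regulators 10 of 22 were higher, with SFRP1, a secreted Wnt antagonist, at 1.37, and 6 lower, with CTNNB1 and ANKRD1, a YAP target, at -2.26 and -1.42. With median scaling 2 of these regulators were higher and 4 lower, and their median moved from 0.23 to -0.29. Signalling genes included NOTCH3, a receptor, and JAG1, a ligand of the same pathway, at 1.15 and 1.08, and ID3, an inhibitor of differentiation induced by BMP, at -1.93. MYC gave -1.45 and -1.63, DUSP1, an immediate early phosphatase, -1.42, and EGR1, an immediate early factor, 1.26. MT2A, a metallothionein that binds zinc and copper, read 8.29, 8.27 and 8.17 against 10.00, 10.28 and 10.33, and all 3 metallothioneins measured were higher, with a median of 0.86. With median scaling 1 of the 3 was called higher and the median was 0.32.

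Further programmes were split. Of 15 p53 targets 9 were higher and 5 lower, with PHLDA3, an inhibitor of AKT signalling, at 0.89 and RRM2B, the p53-induced subunit of ribonucleotide reductase, and TIGAR, a phosphatase that restrains glycolysis, at -1.42 (at least 1.49-fold, since it was detected in the ALKBH4 line alone) and -1.05. The unfolded protein response, which serves folding in the endoplasmic reticulum, had 5 of 19 genes higher and 7 lower: CALR, a lectin chaperone, gave 1.10 and PDIA6, a disulphide isomerase, -1.27. Interferon-responsive genes were higher in 9 of 17 and lower in 2, ISG15, a ubiquitin-like modifier, by 1.14 and TAP1, a peptide transporter of antigen presentation, by 0.91, while B2M, the light chain of MHC class I, gave -0.84 and -1.19. Cholesterol and fatty acid synthesis had 7 of 24 higher and 6 lower, with SC5D and SQLE, both enzymes of the sterol pathway, at -1.78 and -0.79 (SQLE -1.59 at its other probe). Of 27 glycolytic and hypoxia genes 6 were higher and 6 lower, PKM, pyruvate kinase, giving 1.33 and 1.06 at some probes and -0.43 at the remaining one. Of 22 actin and myosin genes 5 were higher and 8 lower, ANLN, a scaffold of the cleavage furrow, at -1.59, ACTN1, an actin crosslinker, at 1.18, and ZYX, of focal adhesions, at -0.65 and, at its other probe, 1.09. Of 10 replication-dependent histone genes, whose near-identical copies leave the assignment of signal uncertain, 6 were higher, H2AC20 by 1.23. Among DNA repair genes 8 of 22 were higher and 4 lower, FANCE, of the Fanconi anaemia core complex, at 1.23, BARD1, the partner of BRCA1, at 1.16 and RPA1, which coats single-stranded DNA, at -0.82 and -1.50. With median scaling the higher calls in these 8 lists were lost.

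Of 23 kidney and HEK293 markers 9 were measured, and 3 were higher in the ALKBH7 line, 3 lower and 3 did not pass, with a median of 0.24 (-0.37 with median scaling, where the calls of the higher ones were lost). The keratin KRT8, VIM, the neuronal filament genes NEFL and INA, and LIN28B were detected on all arrays of both, as was KRT18 at its brightest probe, while NEFM was detected on 1 of 6. PAX2, a kidney transcription factor, was detected at 1 of 3 probes, on all ALKBH7 arrays and no ALKBH4 array. Levels differed: VIM, a mesenchymal filament, read 13.35, 13.54 and 13.44 against 11.73, 11.61 and 12.23 (-1.59, and -1.12 at its other probe), KRT18 gave -0.86, -1.70 and -1.13, and NEFL 0.78. Of 11 neuronal and adrenal markers measured 7 were higher and 4 did not pass, with a median of 0.45 (0.02 with median scaling, where the 7 calls were lost). Defining markers of other cells, PDGFRB, DCN and LUM of fibroblasts, PTPRC, CD3E, HBB and SPI1 of blood and CHGA, TH and DBH of the adrenal medulla, were detected on 0 of 6 arrays. Other markers of such cells were detected. PDGFRA, a growth factor receptor of fibroblasts, was detected at 1 of 2 probes on 3 ALKBH4 and 2 ALKBH7 arrays, the epithelial cadherin CDH1 on 3 and 2, and EPCAM, an epithelial adhesion molecule, at 1 of 2 probes on all 6. Of 14 blood cell markers 4 were measured, 1 higher, 2 lower and 1 not called, with a median of -0.46. HBA1, an alpha-globin, was higher by 0.78, the macrophage protein gene CD68 gave -1.06 (0.11, not called, at its other probe), LCP1, a leukocyte plastin, gave -0.72, and CD14, a monocyte receptor, gave -0.19, not called. The part of these cell types in the differences was not tested. Of 14 housekeeping genes 5 were lower, TFRC, HPRT1, YWHAZ, B2M and PGK1, between -1.14 and -0.84, 1, SDHA, was higher (0.68, but -0.90 at its other probe) and 8 did not pass.

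The study picked the genes it listed for each induction from these same arrays, so their counts are no independent evidence. Of 6 measured genes listed as higher after ALKBH7 induction 4 were higher than in the induced ALKBH4 line, GNL3L, a nucleolar GTPase, by 1.21 and SEM1, a proteasome subunit, by 0.92 and 1.63. Of 6 listed as lower 4 were lower, with MORF4L2 and CNBP, a nucleic acid-binding zinc finger protein, at -2.77 and -2.21, and GDF15 was higher. Of 8 listed as higher after ALKBH4 induction 1 was higher in the ALKBH7 line, PIEZO1, a mechanosensitive channel, by 0.81, and 3 were lower, INSIG1, HSPA1B and HSPA8. Of 11 listed as lower after ALKBH4 induction 4 were higher in the ALKBH7 line, DDIT4, STC2, DDIT3 and SNX5, a sorting nexin, the last by 0.49 (-1.24 at its other probe), and 2 were lower, SLC3A2 by a difference of -1.54 and LETMD1 by at least 1.78-fold. With the mean over a gene's probes, 3 of these 11 were higher and 7 lower, and their median moved from 0.11 to -0.37. INSIG1, which holds the sterol sensor in the endoplasmic reticulum, read 10.68, 10.62 and 10.82 in the induced ALKBH4 line against 8.28, 8.55 and 8.09.

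The uninduced arrays show how much of this separated the lines without doxycycline. In a fit to all 12 arrays the line difference passed at 6368 probes in induced cells (45.5%) and at 5487 in uninduced cells (39.2%). Of the 3309 probes higher in the induced ALKBH7 line (23.6%), 1955 were also higher in the uninduced one (59.1% of these, and 68.9% of the 2839, or 20.3%, that were higher uninduced). Of the 3059 lower (21.8%), 1643 were lower in both (53.7%, and 62% of the 2648, or 18.9%, lower uninduced). Directions were opposite at 13 and 11 probes. The fitted difference between induced and uninduced line differences passed at 11 probes (0.0785%), while 2396 (17.1%) had an unadjusted p under 0.05, so for most of the genes named above the data do not show whether induction altered the line difference. Without any one of the 6 ALKBH4 arrays the count was 1 or 2, without ALKBH7 induced replicates 1, 2 and 3 it was 1, 1 and 37, and without ALKBH7 uninduced replicate 3 it was 3.

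One uninduced array bears on all of these values. ALKBH7 uninduced replicate 1 correlated at 0.934 and 0.937 with the other 2 arrays of its group, which correlated at 0.989 with each other, and at 0.956 to 0.970 with the induced ALKBH7 arrays, though its ALKBH7 level of 9.66 was that of uninduced cells. Of the 1024 probes over 2-fold lower in the induced ALKBH7 line, this array lay nearer the induced ALKBH7 mean than the uninduced ALKBH4 mean at 980 (95.7%), and replicates 2 and 3 did so at 366 (35.7%) and 386 (37.7%). Of the 626 over 2-fold higher the counts were 509 (81.3%), 421 (67.3%) and 361 (57.7%). The probe of ACTG1 that was low read 7.77 on this array and 11.91 and 11.32 on the other 2, and GABPA read 6.24 against 9.08 and 8.89. All 12 of the lowest named genes followed this pattern on replicate 1, against 0 on replicate 2 and 1 on replicate 3. Without this array 6072 probes (43.4%) passed between the uninduced lines and the difference of differences passed at 3219 (23%), 1456 higher and 1763 lower. What sets this array apart was not tested.

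**Figure D4:**
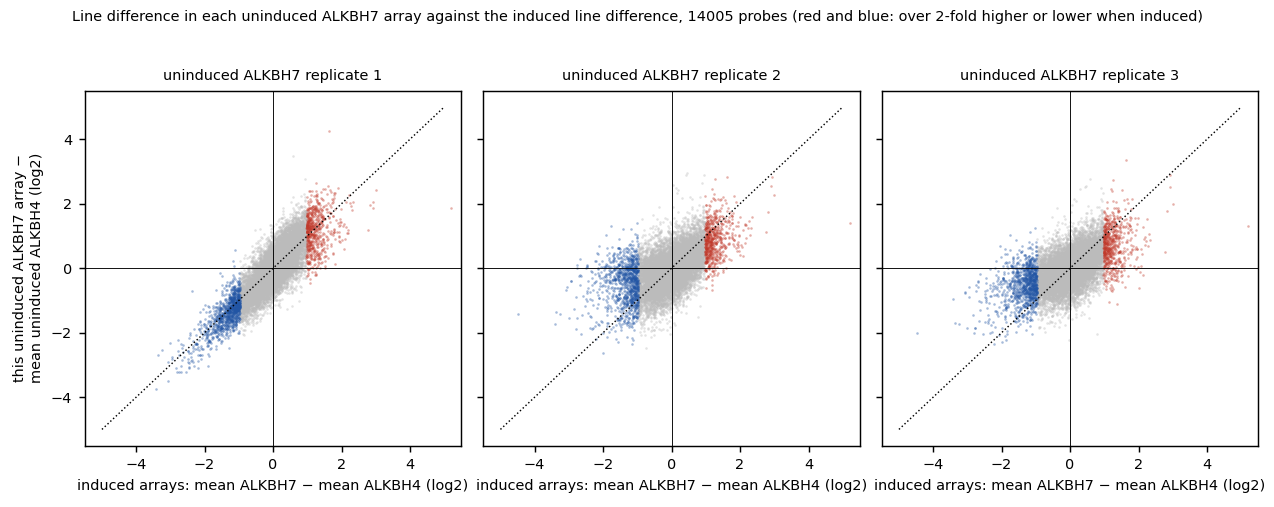
Each uninduced ALKBH7 array minus the mean of the uninduced ALKBH4 arrays (log2) against the induced line difference (log2) for the 14005 probes, with probes over 2-fold lower in blue and over 2-fold higher in red. Replicate 1 follows the dotted line of equal differences, while in replicates 2 and 3 most blue probes lie above that line.

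Several of the highest genes differed between the lines on every uninduced array. DDIT4 read 10.40, 9.97 and 9.76 in the uninduced ALKBH4 line and 12.48, 12.32 and 12.05 in the uninduced ALKBH7 line. AMOT read 9.49, 10.46 and 10.52 and PCDH19 8.50, 9.02 and 8.97 in the latter, against group means of 7.64 and 6.45. The lines were apart on every array at these 3 genes. HOXC4, SESN2, FTO and COL2A1 likewise gave uninduced differences of 1.54, 1.61, 1.16 and 1.67, and their differences of differences, from -0.15 to 0.32, did not pass. Among lower genes CDK1, HSPA1B and CTNNB1 gave -2.05, -2.31 and -1.99, all called. The mitotic list had a median of -0.61 in uninduced cells (19 of 39 lower), -0.55 without replicate 1, the heat shock list -0.81 and -0.76, and the ATF4 list 0.56 and 0.64 (19 of 36 higher, and 23 without it). The medians of these 3 lists lay on the same side of 0 with and without doxycycline. Without replicate 1 the difference of differences passed downward at 9 of 39 mitotic genes and upward at 3. It passed upward at 3 and downward at 2 of 17 heat shock genes, and at 2 of 36 ATF4 targets each way. Over all tested probes in that setting 10.4% passed upward and 12.6% downward.

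At 6 named genes beside ALKBH7 the difference of differences passed. CERT1, a ceramide transporter, read 8.01, 7.65 and 7.96 against 9.43, 9.54 and 9.35 in induced cells, and in uninduced cells the lines overlapped (difference 0.04). GOLIM4, a Golgi membrane protein, WHAMM, an actin nucleation factor, and PCYOX1, a prenylcysteine oxidase, had induced differences of 1.52, 1.16 and 1.23 and uninduced differences of 0.0016, 0.05 and -0.09 in the 12-array fit. In induced cells GOLIM4 was lower at its other probe, by at least 2.34-fold, WHAMM higher there by 0.36, and PCYOX1 not called there (-0.08). ENO3, a muscle enolase, had an uninduced difference of 1.03 at one probe, which in induced cells was detected on 3 ALKBH4 arrays and on 0 ALKBH7 arrays and was lower in the ALKBH7 line by at least 1.02-fold. Its other probe gave 0.29 in induced cells, not called. GDF15, a stress cytokine and ATF4 target, stood at 10.23, 8.88 and 9.51 in uninduced cells of the ALKBH7 line and at 7.29, 7.05 and 7.53 in induced ones, against 6.58 to 6.94 in the ALKBH4 line. Its line difference was 2.79 uninduced and 0.59 induced. Respiratory complexes III to V had a median of 0.37 in induced and 0.09 in uninduced cells of this 12-array fit, and complex I 0.23 and -0.14. With all 12 arrays 0 genes of either list passed the difference of differences. When ALKBH7 uninduced replicate 1 was left out, 10 of 33 and 10 of 30 passed, all upward. In that setting 10.4% of all tested probes passed upward and 12.6% downward. Without ALKBH7 uninduced replicate 1, and not with it, all 12 of the lowest named genes passed the difference of differences. The induced line difference by which these 12 were chosen is part of that value, so their count is no independent evidence. Among them ACTG1 gave -2.78, TMPO -2.40, GABPA -2.43 and MORF4L2 -2.38. The GABPA value is not exact, since its probe was detected on 0 of 3 induced ALKBH7 arrays. Other lower named genes also passed only without that array, such as MAD2L1, XPOT, MYC and CNBP, at -2.42, -2.94, -2.29 and -2.07. Among the highest genes DDIT4, RBM39, LY6G6D and IFNAR2 passed upward only without it, at 0.86, 1.11, 1.18 and 1.71. AMOT, PCDH19 and PCK2, also among the highest, passed in neither setting. For the genes that passed only without that array, the call depends on whether it is included.

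**Figure D5:**
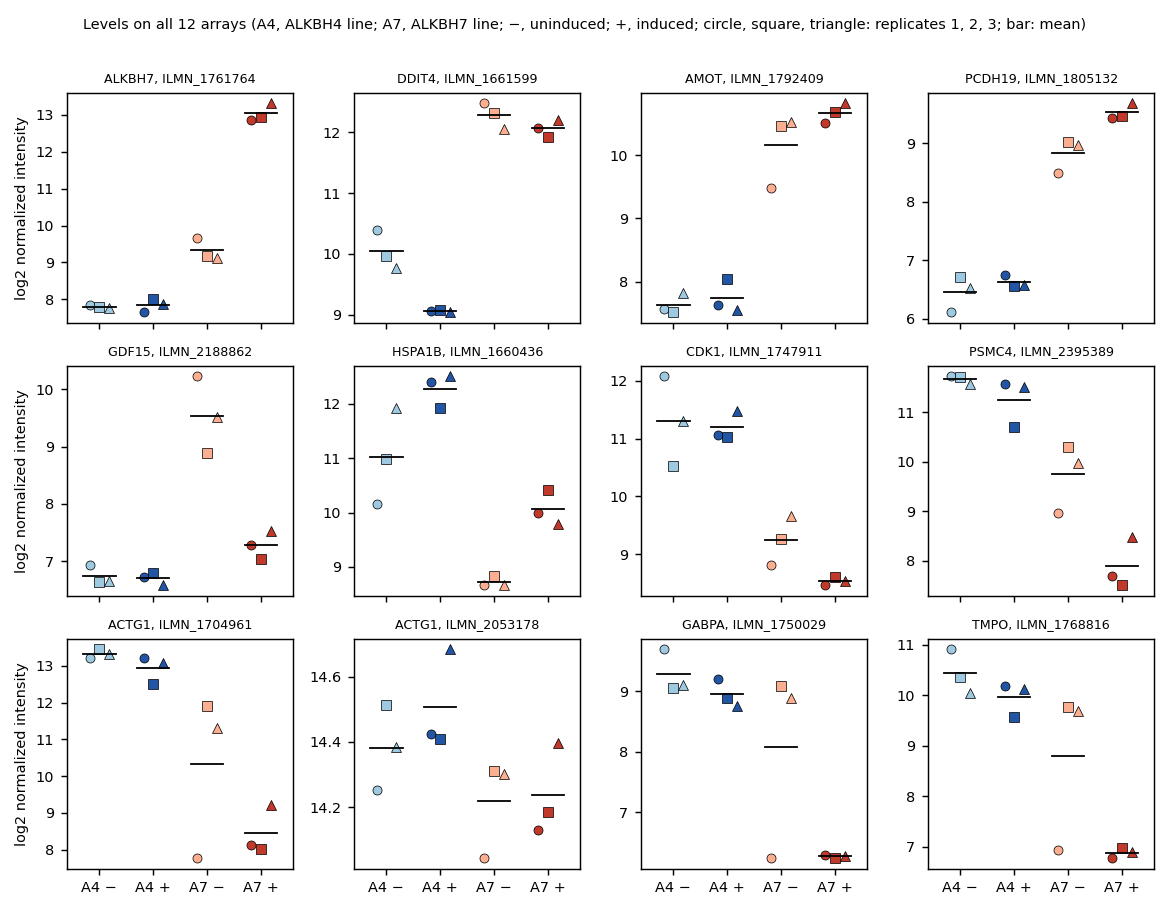
Log2 normalized intensity of 12 probes of 11 genes on all 12 arrays, with the 4 groups along the horizontal axis, a marker per replicate and a bar at the group mean. ALKBH7 is highest in induced ALKBH7 cells, and uninduced ALKBH7 cells lie above both groups of the ALKBH4 line. DDIT4, AMOT, PCDH19, HSPA1B and CDK1 separate the lines in both states, and GDF15 is high in uninduced ALKBH7 cells. ACTG1 at its first probe, GABPA and TMPO are low in induced ALKBH7 cells and on 1 of 3 uninduced ALKBH7 arrays.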

How the data were processed

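Labelled RNA of 12 samples was measured on BeadChips of the HumanWG-6 v3 type. The authors exported bead intensities with GenomeStudio without normalization, and the deposited table holds for each of 48803 probes and each array this intensity and a detection p-value. The deposited series table holds the intensities that the authors quantile normalized in J-Express, used as an alternative. Rank product, the test of the study, was run as another. Groups came from sample titles.

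The 6 induced arrays were quantile normalized together and put on the log2 scale without background correction. Probes with a detection p under 0.01 in at least 3 of the 6 arrays were fitted with limma 3.58.1 (lmFit, eBayes) in R 4.3.3, with Benjamini-Hochberg adjustment over all 14005 probes at 0.05. Uninduced lines and the difference of differences came from a fit of 4 group means to all 12 arrays, normalized together. Gene symbols came from the platform annotation, updated through Entrez ID: 27578 probes had 1 symbol, 13 several and 21212 none. A gene detected on 0 of 3 arrays of a line was given as a bound, "at least N-fold", from the mean of the bright group over, per array of the dim group, the higher of the probe's own signal and the lowest signal detected. Values were compared by an exact permutation test where stated. The fit was tested on simulated data.

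Named genes were ALKBH4 and ALKBH7, the 12 highest and 12 lowest differences among called probes with groups that did not overlap, the 8 genes in each direction with every probe called, the 6 largest bounds in each direction, up to 4 called members of each list in each direction, the genes tabled by the study and the genes leading the difference of differences. List members named beyond these were chosen after their values were seen. The comparison, the members and the lists were chosen with earlier results of these data known. The alternatives were other normalizations, background corrections, filters, thresholds, array weights, the replicate number as a block and fits without each array. The number of arrays per group, 3, limits the precision.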

Additional observations from a re-analysis of the deposited data

Results flagged for a closer look

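For 7 named genes the difference between the lines itself differed between induced and uninduced cells (limma on 12 arrays, difference of differences past adjusted p 0.05). The log2 line difference of induced cells minus that of uninduced cells was 3.68 for ALKBH7, 1.48 for CERT1, 1.52 for GOLIM4, 1.11 for WHAMM and 1.32 for PCYOX1, with adjusted p between 9.26e-06 and 0.0435. It was -1.36 for ENO3 and -2.21 for GDF15. The ENO3 value is not exact, since the probe was detected on 0 of 3 induced ALKBH7 arrays. The WHAMM and GDF15 values rest in part on dim signals. On the induced ALKBH4 arrays WHAMM was detected on 1 of 3 and GDF15 on 2 of 3. Without ALKBH7 uninduced replicate 1 the values were 3.84, 1.48, 1.65, 1.10, 1.51, -1.42 and -1.88 in the same order, and all 7 passed. Leaving out another array changed how many probes passed, which was 1 or 2 without any one of the 6 ALKBH4 arrays, 1, 1 and 37 without ALKBH7 induced replicates 1, 2 and 3, and 12 and 3 without ALKBH7 uninduced replicates 2 and 3. It was 1 with median scaling, with the replicate number as a block and at adjusted p 0.01. Most of the 7 calls were thus lost in each setting with a count of 1 or 2. The other 4 of the 11 probes that passed carry no gene symbol.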

How the results depend on the processing

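Between the induced lines 8646 probes passed. The count was 4666 with arrays scaled to a common median, 15145 without the detection filter and 1650 over 2-fold. When 1 array was left out it was 7356 (without ALKBH7 induced replicate 1) to 8453. Rank product over 2-fold, on 9 pairs of arrays, also gave 1650, with the same 626 higher and 1024 lower. Its pairs share the 6 arrays and are not independent, so its count adds no separate support. With median scaling 42 of 165 named genes lost their call, 41 of them higher in the ALKBH7 line, and INA and SNX5 reversed to -0.21 and -0.11. The ALKBH7 difference ran from 4.77 with median scaling to 5.71 with background correction from detection p-values, and from 5.18 to 5.39 with 1 array left out. Between the uninduced lines 5487 probes passed, 1721 with median scaling, 8988 without the filter and 3102 at adjusted p 0.01, and 3950 (without ALKBH4 uninduced replicate 1) to 6072 (without ALKBH7 uninduced replicate 1) with 1 array left out. The difference of differences passed at 11 probes, at 1 with median scaling, 7 with cyclic loess, 75 without the filter, 6406 with array weights and 1 at adjusted p 0.01, and at 1 (without ALKBH4 uninduced replicate 1, for one) to 3219 (without ALKBH7 uninduced replicate 1) with 1 array left out. The causes were not tested.

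Samples of the same replicate number did not deviate together (r = -0.141, 0.117 and 0.023), so the numbers were not taken to pair samples. With the replicate number as a block 8543 probes passed between induced and 5225 between uninduced lines, and 1 for the difference of differences. The number of arrays and dim signals limit what could be called.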
